A study of Mus musculus with 12 samples.

Results

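Ion and bicarbonate solute carriers are membrane proteins that move bicarbonate, protons, chloride, calcium, phosphate, zinc, iron and magnesium across cell membranes without using ATP directly. They were studied here in the seminal vesicle, the gland that makes most of the fluid volume of semen. Members were all genes whose single symbol on the array's annotation began with Slc4a, Slc8a, Slc9a, Slc12a, Slc20a, Slc24a, Slc26a, Slc30a, Slc34a, Slc39a, Slc40a or Slc41a followed by a number. This gave 80 genes, each with 1 probe set, of 30063 named genes in all. Of the 80, 76 are transporters, and 4 carry such a name without being one: Slc9a3r1 and Slc9a3r2, scaffold proteins that hold transporters at the membrane, Slc4a1ap, a protein named for binding Slc4a1, and the pseudogene Slc39a1-ps. One probe set listed under several symbols, Slc8b1 among them, was left out.

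The mice were males of the C57BL/6 strain, and their glands were taken at week 10. WT_DES mice were wild type and had received diethylstilbestrol (DES), a synthetic estrogen, as pups, dissolved in corn oil and injected under the skin every day from day 1 to day 5 of life, 2 µg for each pup. WT_vehicle mice were wild type and received corn oil alone. The aERKO_DES and aERKO_vehicle mice had the same 2 treatments and carried the aERKO genotype, named for the loss of estrogen receptor alpha, the receptor encoded by Esr1. Each group held 3 arrays, 12 in all. The labels do not name the aERKO allele, and nothing in them says whether each sample is a separate animal. The p-values therefore reflect the spread between the 3 samples within each group, pooled over the 4 groups, and that spread may be technical. Levels below are log2 expression as deposited, differences are log2 differences with the standard error (SE) of limma's fit, and a gene was called where its Benjamini-Hochberg adjusted p over all genes tested was under 0.05. With 3 arrays in each of 2 groups, the smallest p an exact permutation test can give is 0.1, so it was not applied.

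Fluid-secreting epithelia load chloride through cotransporters on the basal side and release it with bicarbonate on the side facing the lumen, and sodium and proton exchangers set how acid or alkaline the fluid becomes. Carbonic anhydrases supply bicarbonate and protons for these exchangers. Zinc is handled by 2 opposed families, of which Slc39 proteins bring it into the cytosol and Slc30 proteins move it out of the cytosol or into vesicles. Slc40a1 is ferroportin, the iron exporter of cells, while Slc20 and Slc34 proteins take up phosphate with sodium, and Slc8 and Slc24 proteins exchange sodium for calcium.

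Array medians lay between 5.95 and 6.14. The 10 secretory markers of the seminal vesicle, among them Svs4, were above the array's negative controls in every group, with mean levels of 13.4 to 13.7 on WT_DES arrays and 13.7 to 13.8 on WT_vehicle arrays. Esr1 was lower (-0.76) in aERKO_vehicle than in WT_vehicle (adjusted p = 0.00587) and lower (-0.76, adjusted p = 1.06e-05) in aERKO_DES than in WT_DES. Its mean levels of 6.90 in aERKO_DES and 6.99 in aERKO_vehicle were still above the negative controls, and where its probes lie relative to the deleted part is not given in the sources used here. Of the 80 members, 67 passed the filter on low values and were tested, and 13 were not. A group's level counts as dim below where its mean was not above the upper quartile of the array's 5222 negative-control probe sets, about 6.8 on this scale, and 22 members were dim in all 4 groups. Libraries of whole tissue cannot tell fewer cells of a type from less RNA per cell, which applies to every difference below.

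After neonatal DES, wild-type glands differed from vehicle-treated ones in at least 1 called carrier of each of the 12 subfamilies. Calls went in both directions in Slc4, Slc8, Slc12, Slc26 and Slc39, and in 1 direction only in the other subfamilies. The apical chloride and bicarbonate exchanger Slc26a3 and the sodium and proton exchanger Slc9a2 had the largest decreases among members above the negative controls in both groups, and the zinc importers Slc39a4 and Slc39a8 the largest increases. The phosphate carrier Slc34a2 and the iron exporter Slc40a1 rose and were dim in WT_vehicle, so only lower bounds are given for them. In all, 37 of the 67 members were called (55.2%), against 43.9% of all 20102 genes tested. The 16 members called higher made up 23.9%, against 20.7% of all genes, and the 21 called lower made up 31.3%, against 23.3%. Fitted differences of at least 1 were found in 3 members called higher (4.48%, against 4.59% of all genes) and in 2 called lower (2.99%, against 0.532%). Slc34a2 and Slc40a1 are among these 3 by fitted values that rest on a dim group. The median over the 67 members was -0.15, and over all genes tested it was -0.05.

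The balance of the counts moved with the scaling between arrays. The split was 16 higher and 21 lower with the deposited values, 12 and 32 after a further quantile normalization, 14 and 33 after shifting arrays to one median, and 22 and 6 after shifting them to the 4 hybridization controls. Over all 20102 genes it was 4152 and 4677, 3515 and 7142, 3404 and 7115, and 8345 and 350 in that order. Those 3 scalings put the median of all genes at -0.10, -0.12 and 0.31. The hybridization controls, which are added in equal amounts to each array, read 11.2 to 11.5 on WT_DES arrays and 11.7 to 11.8 on WT_vehicle arrays. Members called lower numbered 11 without WT_vehicle replicate 2 and 12 without WT_DES replicate 2, against 3104 and 3028 of all genes. Of the 37 calls, 17 held under all alternatives tried in which the gene was tested, 11 of them higher and 6 lower. The 6 lower ones were Slc26a3, Slc9a2, Slc9a7, Slc4a8, Slc12a8 and Slc41a2. The 11 higher ones were Slc34a2, Slc39a4, Slc40a1, Slc39a8, Slc20a1, Slc12a7, Slc39a10, Slc4a4, Slc26a2, Slc8a1 and Slc39a6. Slc40a1 was not tested under the stricter filter. Leaving out 1 array ended the call for 15 of the 37 in at least 1 case: Slc4a3, Slc8a2, Slc8a3, Slc9a5, Slc12a2, Slc12a4, Slc24a3, Slc30a3, Slc30a4, Slc30a5, Slc39a1, Slc39a1-ps, Slc39a3, Slc39a13 and Slc39a14. Among the 9 tested members that were dim in all 4 groups, 1 was called lower and all 9 differences were below 0. The array's 23 background control sets also read lower on WT_DES arrays, with means of 4.70 to 4.99. Their means were 5.25 to 5.34 on WT_vehicle, 5.21 to 5.32 on aERKO_DES and 5.25 to 5.42 on aERKO_vehicle arrays. The part of this background in the decreases of members with low signal was not tested.

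**Figure D1:**
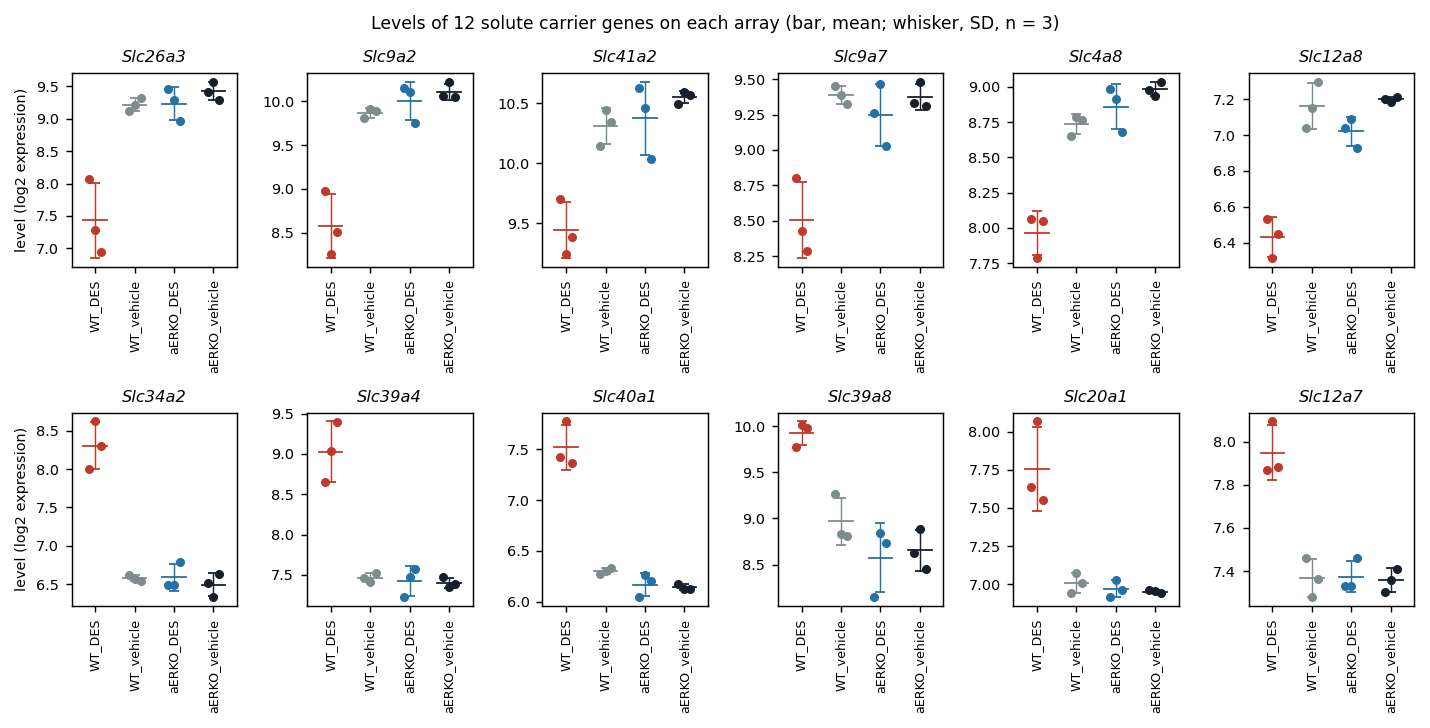
Levels of 12 carriers on each of the 12 arrays (y axis, log2 expression; points, arrays; bar and whisker, mean and SD of 3 arrays; each panel has its own scale), with the 4 groups along the x axis. The upper row shows 6 genes that were lower in WT_DES and the lower row 6 that were higher; in every panel no WT_DES array overlaps the other 9.

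Slc26 proteins exchange anions such as chloride, bicarbonate and sulfate. Of 11 members 7 were tested, and 1 was called higher and 1 lower in WT_DES (all genes: 20.7% and 23.3%). Slc26a3, an apical exchanger of chloride for bicarbonate best known from the colon, measured 8.07, 7.28 and 6.94 on the WT_DES arrays, against 9.12, 9.21 and 9.32 on the WT_vehicle arrays. It measured 9.46, 9.28 and 8.97 in aERKO_DES, against 9.42, 9.57 and 9.29 in aERKO_vehicle. All 3 WT_DES arrays lay below the other 9, and they were also the most spread, with an SD of 0.581 against 0.099 in WT_vehicle. The difference between WT_DES and WT_vehicle was -1.79 ± 0.22 (SE, adjusted p = 4.56e-05), 3.46-fold lower. The sulfate transporter Slc26a2 moved the other way, with 7.56, 7.89 and 7.58 in WT_DES against 7.35, 7.28 and 7.24 in WT_vehicle (0.39 ± 0.10, SE, adjusted p = 0.00713). Slc26a10 (-0.13) and Slc26a11 (-0.06), which carries sulfate, were not called. Slc26a1, Slc26a6 and Slc26a9 were not called either and were dim in both WT groups.

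The promoter of Slc26a3 is printed because this gene had the largest decrease among members above the negative controls in both groups. The window holds the 250 bases before the annotated start on mouse chromosome 12 (RefSeq, GRCm38.p6, + strand, chr12:31437969-31438218), and it was searched on both strands for 5 motifs. These were the palindromic estrogen response element, the AP-1 site TGANTCA, the metal response element TGCACNC or TGCGCNC, the antioxidant response element TGACNNNGC and the NF-kB site. None of these letters were found in this window, so it has no capitals. A match or its absence describes letters only.
Slc26a3: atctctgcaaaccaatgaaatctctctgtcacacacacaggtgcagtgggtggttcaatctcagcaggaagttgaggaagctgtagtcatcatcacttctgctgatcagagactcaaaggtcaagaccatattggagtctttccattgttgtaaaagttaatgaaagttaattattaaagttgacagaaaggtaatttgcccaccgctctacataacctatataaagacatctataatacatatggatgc

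Slc4 proteins carry bicarbonate, with or without sodium, and 9 of 10 were tested. Slc4a8, a sodium-driven exchanger of chloride for bicarbonate, measured 8.06, 7.79 and 8.05 in WT_DES, against 8.65, 8.79 and 8.77 in WT_vehicle. In aERKO_DES it was 8.99, 8.91 and 8.68, against 8.98, 8.94 and 9.03 in aERKO_vehicle. The 3 WT_DES arrays were the lowest of the 12, and the difference was -0.77 ± 0.09 (SE, adjusted p = 3.86e-05). Slc4a4, a sodium and bicarbonate cotransporter of the basal membrane in pancreas and kidney, went up instead. Its WT_DES arrays read 6.72, 6.98 and 6.82, against 6.49, 6.31 and 6.36 in WT_vehicle, and its aERKO_DES arrays read 6.30, 6.24 and 6.32, against 6.24, 6.14 and 6.30 in aERKO_vehicle. No WT_DES array overlapped another group (adjusted p = 0.000636), but the other 3 groups were dim and the bound gives no size. Slc4a3, an exchanger of heart and brain, was lower (-0.19, adjusted p = 0.0288), which turned to 0.17 without a call when arrays were shifted to the hybridization controls. The widely expressed exchanger Slc4a2 (-0.07) and the binding protein Slc4a1ap (0.03) were not called. Slc4a1 of red blood cells, which was dim in WT_DES, and Slc4a5, Slc4a9 and Slc4a11, which were dim in both WT groups, were not called either.

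The Slc9 family exchanges sodium for protons. Of 8 tested members 4 were called lower and none higher (all genes: 23.3% and 20.7%). Slc9a2, an exchanger of the apical membrane, measured 8.98, 8.25 and 8.50 in WT_DES, against 9.81, 9.91 and 9.89 in WT_vehicle. Its aERKO_DES arrays read 10.15, 10.10 and 9.75, against 10.06, 10.22 and 10.05 in aERKO_vehicle. The lowest array outside WT_DES was well above the highest one inside it, and the difference was -1.29 ± 0.15 (SE, adjusted p = 3.3e-05), 2.45-fold lower. Slc9a7, which works in the trans-Golgi network, measured 8.80, 8.42 and 8.28 in WT_DES, against 9.45, 9.39 and 9.33 in WT_vehicle, again with no overlap (-0.89 ± 0.13, SE, adjusted p = 0.000176). The scaffold Slc9a3r2 was lower (-0.28, adjusted p = 0.0127), and Slc9a5 was called lower with both groups dim, so no size is given. With the hybridization controls as the scale, both changed sign, Slc9a3r2 to 0.08, and neither was called.

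Slc9a3, the main absorptive exchanger of gut and kidney, gave overlapping values of 6.74, 6.44 and 6.49 in WT_DES, against 6.56, 6.48 and 6.48 in WT_vehicle, dim in both groups (adjusted p = 0.683). Its scaffold Slc9a3r1 measured 9.60, 9.49 and 9.59 in WT_DES, against 9.67, 9.82 and 9.76 in WT_vehicle. In aERKO_DES Slc9a3r1 read 9.87, 9.83 and 9.52, against 9.88, 9.98 and 9.90 in aERKO_vehicle. The WT groups did not overlap, yet the difference of -0.19 ± 0.09 (SE) missed the threshold (adjusted p = 0.0959). The Golgi exchanger Slc9a8 (-0.15) and the endosomal exchanger Slc9a9 (0.05) were not called either.

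Among 16 carbonic anhydrases, 13 were tested, and 3 were called higher and 5 lower in WT_DES (all genes: 20.7% and 23.3%), with a median of -0.21. Of the 16, 9 were dim in WT_DES and 9 in WT_vehicle, so this median includes dim genes. Car13, a cytosolic enzyme, measured 9.05, 9.56 and 9.10 in WT_DES, against 7.01, 6.88 and 6.86 in WT_vehicle (2.32 ± 0.12, SE, adjusted p = 1.96e-08). Car8 and Car12 were called higher, but both groups were dim and no fold is given. Car5b, a mitochondrial enzyme, was lower (-0.68, adjusted p = 0.00682), a call lost with the hybridization controls (-0.33, adjusted p = 0.0856). Of 15 tested chloride and bicarbonate channels, 3 were called higher and 2 lower (all genes: 20.7% and 23.3%), with a median of -0.00. The calcium-activated chloride channel Ano1 read 10.68, 10.64 and 10.69 in WT_DES, against 10.01, 9.91 and 10.05 in WT_vehicle (0.68 ± 0.06, SE, adjusted p = 2.71e-06). Its relative Ano6 was higher by 0.84 and Ttyh3 by 0.56, while the endosomal exchanger Clcn3 was lower (-0.41), a call that was lost with the hybridization controls.

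Proton pumps showed a similar mixture. Atp12a, the non-gastric proton and potassium pump, measured 9.87, 9.20 and 8.86 in WT_DES, against 10.86, 10.97 and 10.86 in WT_vehicle (-1.59 ± 0.19, SE, adjusted p = 3.39e-05). Of 14 tested sodium and proton pumps and sodium channels, 3 were called higher and 3 lower (all genes: 20.7% and 23.3%), with a median of 0.05. The pump regulator Fxyd4 was at least 1.66-fold higher (adjusted p = 1.23e-05), Fxyd3 was higher by 0.56, and the sodium pump subunit Atp1b3 by 0.47, a call lost after quantile normalization (0.26, adjusted p = 0.066). Among 18 tested subunits of the vacuolar proton ATPase, 3 were called higher and 2 lower (all genes: 20.7% and 23.3%), with a median of 0.00. Atp6v1c2 measured 8.71, 8.03 and 8.09 in WT_DES, against 9.74, 9.42 and 9.55 in WT_vehicle (-1.29 ± 0.19, SE, adjusted p = 0.000197). Atp6v0a1 was lower (-0.66), a call that was lost with the hybridization controls, while Atp6ap2 was higher by 0.46 and Atp6v1b2 by 0.29. The call of Atp6v1b2 was lost after quantile normalization and median scaling, and without WT_vehicle replicate 2 or 3 or WT_DES replicate 1 or 2 (differences of 0.21 to 0.30 in those 4 cases).

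Slc12 proteins carry chloride together with sodium, potassium or both. Of 7 tested, 3 were called higher and 1 lower (all genes: 20.7% and 23.3%). Slc12a2, the cotransporter that loads chloride into secretory cells from the blood side, rose. It read 11.002, 10.83 and 10.94 in WT_DES, against 10.61, 10.55 and 10.58 in WT_vehicle, and 10.48, 10.14 and 10.08 in aERKO_DES, against 10.31, 10.56 and 10.41 in aERKO_vehicle. All WT_DES arrays were above the other 9 (0.35 ± 0.10, SE, adjusted p = 0.0148). The call was lost after quantile normalization (0.13, adjusted p = 0.140) and without WT_DES replicate 1 (0.31, adjusted p = 0.0506).

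The potassium and chloride cotransporters Slc12a7 and Slc12a4, which let chloride leave the cell, were also higher. Slc12a7 read 7.87, 8.09 and 7.88 in WT_DES, against 7.46, 7.28 and 7.36 in WT_vehicle (0.58 ± 0.08, SE, adjusted p = 8.41e-05). Slc12a4 was higher by 0.23 (adjusted p = 0.0127). Slc12a8 measured 6.53, 6.31 and 6.45 in WT_DES, against 7.04, 7.15 and 7.30 in WT_vehicle. WT_DES was dim for this gene, which makes it at least 1.30-fold lower (adjusted p = 1.61e-05). Slc12a9 (-0.12) was not called, nor were the kidney sodium and chloride cotransporter Slc12a3 and the neuronal Slc12a5, which were dim in both WT groups.

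Kinases of the WNK and SPAK pathway switch Slc12 cotransporters on and off. Of 11 tested genes of this pathway, 1 was called higher and 3 lower (all genes: 20.7% and 23.3%), with a median of -0.01. Wnk1 was higher by 0.28, a call lost after quantile normalization (0.15, adjusted p = 0.0785), after median scaling, and without WT_vehicle replicate 2 or 3 or WT_DES replicate 2. In contrast, Cab39l, a scaffold of these kinases, was lower (-0.76, adjusted p = 0.000538). Sgk1, a kinase that regulates sodium transport, was lower (-0.47), and so was Stk39 (-0.30), which encodes SPAK. With the hybridization controls Sgk1 lost its call and Stk39 changed sign (0.06). Without WT_vehicle replicate 2, and also without WT_DES replicate 2, the number called in this pathway was 2.

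Calcium carriers of both families changed little. Slc8a1, the sodium and calcium exchanger of heart muscle, measured 7.23, 7.24 and 7.03 in WT_DES, against 6.75, 6.77 and 6.90 in WT_vehicle, where it was dim. Its aERKO_DES arrays read 6.83, 6.68 and 6.61, against 6.55, 6.84 and 6.64 in aERKO_vehicle. WT_DES stood above the other 9 arrays and was at least 1.22-fold higher (adjusted p = 0.00792). Slc8a2 read 6.93, 6.74 and 6.96 in WT_DES, against 7.10, 7.08 and 7.08 in WT_vehicle, and 7.13, 7.15 and 7.33 in aERKO_DES, against 7.06, 6.99 and 7.15 in aERKO_vehicle. The WT groups did not overlap (-0.21 ± 0.08, SE, adjusted p = 0.0432). Slc8a3 was called lower with both groups dim.

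Of the Slc24 exchangers, which also use potassium, 3 of 5 were tested. Slc24a3 measured 7.73, 7.63 and 7.67 in WT_DES, against 7.93, 7.83 and 7.82 in WT_vehicle (-0.18 ± 0.06, SE, adjusted p = 0.0332). In aERKO_DES it read 7.90, 7.79 and 7.92, against 7.79, 7.84 and 7.76 in aERKO_vehicle. Its WT groups did not overlap. Slc8a2, Slc8a3 and Slc24a3 all changed sign without a call under the hybridization controls, Slc8a2 to 0.14 and Slc24a3 to 0.17. Slc24a1 and Slc24a4 were dim in all 4 groups and were not called in WT.

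Of 15 tested calcium pumps and channels, 3 were called higher and 5 lower (all genes: 20.7% and 23.3%), with a median of -0.05. The epithelial calcium channel Trpv6 read 9.54, 8.98 and 9.01 in WT_DES, against 10.04, 10.39 and 10.36 in WT_vehicle (-1.09 ± 0.14, SE, adjusted p = 6.98e-05). The plasma membrane pump Atp2b1 was higher by 0.78 (adjusted p = 0.00023) and the reticulum pump Atp2a3 by 0.49. The pump Atp2b3 was dim in WT_DES and at least 1.15-fold lower (adjusted p = 0.000104), a call lost with the hybridization controls (adjusted p = 0.348).

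Phosphate carriers rose where they changed at all. Slc34a2, the sodium and phosphate cotransporter of lung and intestine, measured 8.0, 8.62 and 8.30 in WT_DES, against 6.62, 6.57 and 6.55 in WT_vehicle. It measured 6.49, 6.49 and 6.79 in aERKO_DES, against 6.52, 6.33 and 6.63 in aERKO_vehicle. This gene was above the negative controls in WT_DES and dim in the other 3 groups, which puts WT_DES at least 2.72-fold above WT_vehicle (adjusted p = 8.56e-07). Slc20a1, a widely expressed phosphate carrier that also serves as a retrovirus receptor, read 7.64, 8.07 and 7.55 in WT_DES, against 6.94, 7.07 and 7.01 in WT_vehicle. No array overlapped (0.75 ± 0.11, SE, adjusted p = 0.000153).

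Slc20a2, the close relative of Slc20a1, read 8.76, 8.90 and 8.72 in WT_DES, against 8.78, 8.77 and 8.84 in WT_vehicle. In aERKO_DES it read 8.63, 8.76 and 8.60, against 8.75, 8.79 and 8.82 in aERKO_vehicle. The WT groups overlapped (-0.00 ± 0.07, SE, adjusted p = 0.996). The kidney carriers Slc34a1 and Slc34a3 were dim in both WT groups and were not called. Among 11 tested genes of phosphate and magnesium handling, 2 were called higher and 1 lower (all genes: 20.7% and 23.3%), with a median of -0.08. The phosphate exporter Xpr1 was higher by 0.48 and the receptor Fgfr1 by 0.51.

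The promoter of Slc34a2 is printed because this gene rose and was dim outside WT_DES (RefSeq, GRCm38.p6, + strand, mouse chromosome 5, chr5:53049103-53049352). Capitals mark 2 matches to the metal response element, whose first bases lie at -206 and -8 counted from the start site.
Slc34a2: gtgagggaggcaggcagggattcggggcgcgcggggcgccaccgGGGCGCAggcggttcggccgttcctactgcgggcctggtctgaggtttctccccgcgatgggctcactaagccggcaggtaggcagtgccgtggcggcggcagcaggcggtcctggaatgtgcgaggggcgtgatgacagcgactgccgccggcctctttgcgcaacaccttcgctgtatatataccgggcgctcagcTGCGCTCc

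Of the 12 subfamilies, Slc39 had the most tested members and also the most called ones. Its 13 tested members were 12 zinc importers and the pseudogene Slc39a1-ps. In WT_DES 7 of the 13, the pseudogene included, were called higher and 5 lower (all genes: 20.7% and 23.3%). Only Slc39a5 was not called (-0.24, adjusted p = 0.0543). In the smaller Slc8 (3 tested) and Slc40 (1 tested) every member was called. Slc39a4, which takes up dietary zinc in the intestine, measured 8.65, 9.03 and 9.40 in WT_DES, against 7.46, 7.41 and 7.52 in WT_vehicle. Its aERKO_DES arrays read 7.22, 7.48 and 7.58, against 7.47, 7.35 and 7.38 in aERKO_vehicle. The 9 arrays outside WT_DES overlapped one another, and WT_DES lay above all of them (1.56 ± 0.15, SE, adjusted p = 4.64e-06), 2.96-fold higher than WT_vehicle.

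Slc39a8, a carrier of zinc and manganese, measured 9.78, 10.02 and 9.98 in WT_DES, against 9.27, 8.83 and 8.81 in WT_vehicle. In aERKO_DES it read 8.14, 8.85 and 8.73, against 8.62, 8.88 and 8.45 in aERKO_vehicle. Every WT_DES array was above the other 9 (0.96 ± 0.18, SE, adjusted p = 0.00106), 1.94-fold higher than WT_vehicle. Its 2 annotated promoter windows (RefSeq, GRCm38.p6, + strand, mouse chromosome 3) are printed because it passed 2-fold between aERKO_DES and WT_DES. Capitals mark an antioxidant response element at -35 in the first window, chr3:135825029-135825278, and a metal response element at -19 in the second, chr3:135825407-135825656.
Slc39a8 first window: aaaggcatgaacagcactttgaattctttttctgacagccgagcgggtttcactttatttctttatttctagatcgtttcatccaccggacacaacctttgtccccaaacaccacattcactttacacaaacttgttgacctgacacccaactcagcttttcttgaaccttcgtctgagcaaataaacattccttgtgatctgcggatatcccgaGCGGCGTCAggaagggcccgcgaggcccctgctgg
Slc39a8 second window: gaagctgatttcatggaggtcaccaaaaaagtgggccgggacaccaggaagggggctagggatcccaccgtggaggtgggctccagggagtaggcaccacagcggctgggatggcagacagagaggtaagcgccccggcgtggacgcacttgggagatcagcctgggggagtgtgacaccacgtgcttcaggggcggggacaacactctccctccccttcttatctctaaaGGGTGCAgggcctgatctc

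Promoter windows were available for 64 of the 80 members, 81 windows in all, and 3 of these 64 were among the 6 members with a called difference of at least 1 in any comparison. Metal response elements were found in 34.6% of the members' windows, against 21.4% of all 32851 windows. Antioxidant response elements were found in 12.3% of them, against 10.2% of all windows. AP-1 sites were in 7.41%, against 6.75%, and NF-kB sites in 1.23%, against 3.90%. The estrogen response element was in 0 of the 81 windows, against 0.0639% of all. The metal response element matches lay in members of both directions, among them Slc20a1 and Slc4a4, which were higher in WT_DES, and Slc9a7 and Slc41a2, which were lower.

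Smaller increases were found in 5 further members of the Slc39 family. Slc39a10 read 8.20, 8.32 and 8.14 in WT_DES, against 7.73, 7.66 and 7.56 in WT_vehicle (0.57 ± 0.07, SE, adjusted p = 3.63e-05). Slc39a6, its closest relative, read 8.24, 8.50 and 8.27 in WT_DES, against 8.04, 8.02 and 7.95 in WT_vehicle (0.34 ± 0.08, SE, adjusted p = 0.00388). Slc39a14, a zinc and iron carrier that rises in the inflamed mouse liver, read 7.74, 7.98 and 7.65 in WT_DES, against 7.57, 7.54 and 7.53 in WT_vehicle (0.24, adjusted p = 0.0266). For these 3 genes no WT_DES array fell within the WT_vehicle range. The call of Slc39a14 was lost in 4 fits that left out 1 WT array: without any 1 of the WT_vehicle arrays, and without WT_DES replicate 2 (0.15, adjusted p = 0.0953). It was also lost after quantile normalization (0.16, adjusted p = 0.06), after median scaling, and with only the 2 WT groups in the fit (adjusted p = 0.0617). Slc39a14 read 7.44, 7.53 and 7.45 in aERKO_DES, against 7.47, 7.55 and 7.53 in aERKO_vehicle. Slc39a1 and its pseudogene Slc39a1-ps were each higher by 0.27, but their sequences are alike and their signals may not be independent. Both lost the call after quantile normalization (adjusted p = 0.0685 and 0.0695) and without WT_vehicle replicate 2. Slc39a1 also lost it after median scaling (adjusted p = 0.0770) and without WT_vehicle replicate 1 or 3 or WT_DES replicate 2 or 3.

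The Slc39 members that fell included carriers of inner membranes. Slc39a7, which releases zinc from the endoplasmic reticulum, read 9.72, 9.47 and 9.45 in WT_DES, against 10.18, 10.25 and 10.26 in WT_vehicle (-0.69 ± 0.11, SE, adjusted p = 0.000266). Its aERKO_DES arrays read 10.12, 10.10 and 9.72, against 10.17, 10.28 and 10.22 in aERKO_vehicle, and 1 aERKO_DES array lay within the WT_DES range. Slc39a11 (-0.55) and Slc39a9 (-0.50) were lower as well. These 3 kept their sign but lost the call with the hybridization controls (-0.33, -0.20 and -0.14). Slc39a3 (-0.29) and Slc39a13 (-0.21), which lies in the Golgi, changed sign under that scaling (0.07 and 0.15).

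In the Slc30 family 4 of 8 tested members were called lower and none higher (all genes: 23.3% and 20.7%). Slc30a7, which fills the early secretory pathway with zinc, measured 9.87, 9.64 and 9.53 in WT_DES, against 10.20, 10.38 and 10.23 in WT_vehicle. Its aERKO_DES arrays read 10.48, 10.36 and 10.01, against 10.29, 10.42 and 10.39 in aERKO_vehicle. WT_DES was below the other 9 arrays (-0.59 ± 0.12, SE, adjusted p = 0.00164), a call lost with the hybridization controls (-0.23). Slc30a4, which brings zinc into mouse milk, was lower (-0.31), as were Slc30a5 of the secretory pathway (-0.28) and Slc30a3 of synaptic vesicles (-0.26). Under the hybridization controls these 3 changed sign (0.04, 0.08 and 0.09). Slc30a1, which exports zinc through the plasma membrane, read 7.81, 7.93 and 7.99 in WT_DES, against 7.77, 7.71 and 7.79 in WT_vehicle, and 7.79, 7.70 and 7.84 in aERKO_DES, against 7.77, 7.77 and 7.79 in aERKO_vehicle. The WT groups did not overlap, but 0.15 ± 0.06 (SE) was not called (adjusted p = 0.0771). Slc30a2, Slc30a6 and Slc30a9 were not called (-0.29 to 0.14).

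Slc40a1, the exporter through which cells release iron, measured 7.42, 7.77 and 7.36 in WT_DES, against 6.27, 6.30 and 6.34 in WT_vehicle. It measured 6.04, 6.26 and 6.20 in aERKO_DES, against 6.17, 6.13 and 6.13 in aERKO_vehicle. As for Slc34a2, WT_DES alone was above the negative controls, at least 1.57-fold above WT_vehicle (adjusted p = 8.98e-07). Of the magnesium carriers, Slc41a2 measured 9.70, 9.24 and 9.39 in WT_DES, against 10.15, 10.45 and 10.34 in WT_vehicle, and 10.62, 10.46 and 10.04 in aERKO_DES, against 10.49, 10.59 and 10.57 in aERKO_vehicle. WT_DES was below the rest (-0.87 ± 0.15, SE, adjusted p = 0.000485). Slc41a1 (-0.03) and Slc41a3 (0.06) were not called, and Magt1, a further magnesium transporter, was lower (-0.68), a call lost with the hybridization controls (-0.32).

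All 21 other genes of zinc and iron handling were tested, and 10 were called higher and 6 lower (all genes: 20.7% and 23.3%), with a median of 0.24. Lcn2, which binds the iron carriers of bacteria, measured 11.05, 11.51 and 11.36 in WT_DES, against 8.60, 8.76 and 8.91 in WT_vehicle (2.55 ± 0.13, SE, adjusted p = 1.8e-08). The ferroxidase Cp was higher by 2.37, the metal reductase Steap4 by 1.80 and transferrin (Trf) by 1.71. Other genes of this list are named after their values were seen. The phagosome metal carrier Slc11a1 (1.38), the heme-degrading enzyme Hmox1 (1.59) and the ferritins Fth1 (0.43) and Ftl1 (0.34) were called higher, although Ftl1 lost its call after quantile normalization (0.11, adjusted p = 0.316), without WT_vehicle replicate 1 and without WT_DES replicate 2. The iron importer Slc11a2 (-0.53), the ferroxidase Heph (-0.60) and the zinc-binding metallothioneins Mt1 (-0.68), Mt2 (-0.40) and Mt3 (-0.97) were called lower. With the hybridization controls Slc11a2, Heph, Mt1 and Mt2 lost their calls (-0.18, -0.25, -0.32 and -0.05).

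**Figure D2:**
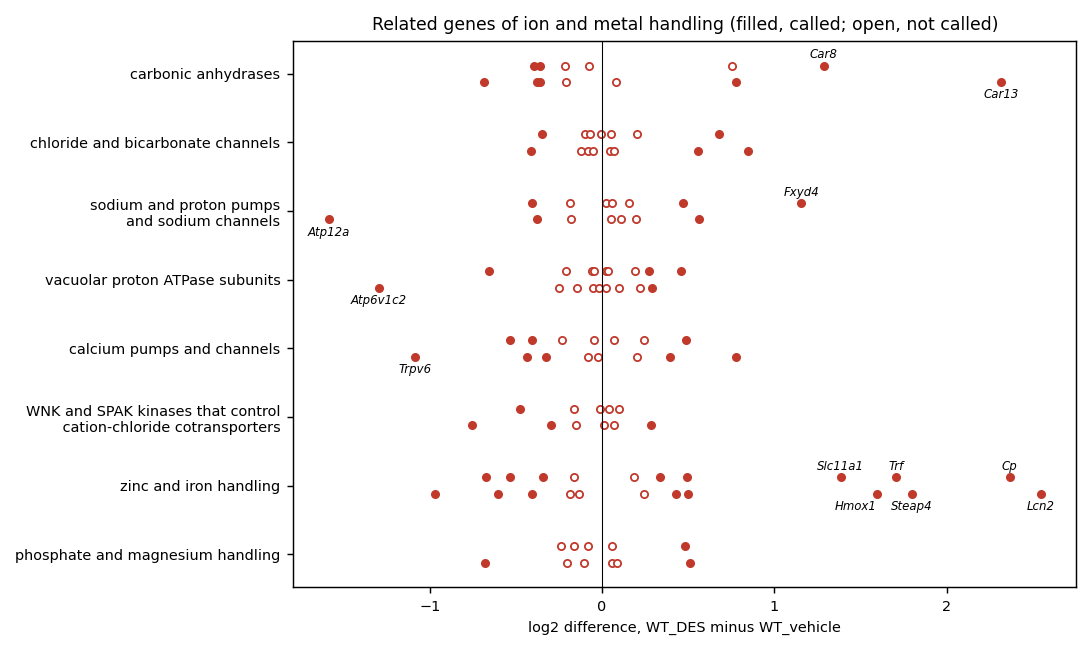
Differences between WT_DES and WT_vehicle (x axis, log2) of the tested genes in 8 related lists (rows); each point is a gene, filled where called, with genes of at least 1 in size named. Zinc and iron handling, the list with the most tested genes, had the most called genes of the 8 lists (16 of 21, against 43.9% of all genes). Car8 was dim in both groups.

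Marker genes of several cell types also differed between WT_DES and WT_vehicle. For comparison with the counts below, 20.7% of all genes were called higher and 23.3% lower. All 14 macrophage markers were called higher in WT_DES, with mean levels of 9.34 to 9.76 on WT_DES arrays and 7.29 to 7.52 on WT_vehicle arrays. Of these 14, 1 lay below the negative controls in WT_DES and 4 in WT_vehicle. Neutrophil markers were called higher in 9 of 12, with mean levels of 8.0 to 8.44 in WT_DES (2 below the negative controls) and 5.80 to 5.84 in WT_vehicle (10 below). Basal and squamous epithelial markers were called higher in 11 of 11 tested, with mean levels of 8.11 to 8.45 in WT_DES (2 of 12 below) and 6.91 to 6.99 in WT_vehicle (6 below). Fibroblast and matrix markers were higher in 10 of 10, endothelial markers in 9 of 10, B and plasma cell markers in 8 of 9 and T cell markers in 8 of 9. Smooth muscle markers were lower in 10 of 12 (mean levels of 9.98 to 10.2 in WT_DES and 10.5 to 10.6 in WT_vehicle) and secretory markers in 6 of 10. Luminal epithelial markers were split, with 6 higher and 4 lower of 14, and mean levels of 9.87 to 9.93 on WT_DES arrays and 9.80 to 9.85 on WT_vehicle arrays. Prostate and coagulating gland markers were called lower in 4 of 8 tested. Their mean levels were 9.34 to 10.2 on WT_DES arrays and 9.54 to 10.7 on WT_vehicle arrays. Of the 9 on the array, 1 lay below the negative controls in each group, and Tgm4 averaged 12.9 in WT_DES and 13.6 in WT_vehicle. Msmb (1.35, adjusted p = 0.388) and Defb50 (1.06, adjusted p = 0.245) of this list went the other way, without a call. Whether tissue of these glands was part of the samples was not tested. Skeletal muscle markers (3 higher and 2 lower of 12), nerve and Schwann cell markers (2 higher of 7), red blood cell markers (1 lower of 2) and epididymis and vas deferens markers (0 called of 2) were also counted. The part of these cell types in the carriers' differences was not tested.

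In aERKO glands DES left no carrier past the threshold. Between aERKO_DES and aERKO_vehicle 0 of 67 members were called by limma (0.0%), as were 0.0% of all genes tested. At an unadjusted p under 0.05 there were 2 members, Slc12a8 (-0.18) and Slc39a7 (-0.25), and 264 genes in all. The members' differences ran from -0.25 to 0.14, and their smallest adjusted p was 0.999. Slc26a3 differed by -0.19 ± 0.22, Slc9a2 by -0.10 ± 0.15, Slc39a4 by 0.02 ± 0.15 and Slc39a8 by -0.08 ± 0.18 (SE). None of the genes in the 8 related lists was called.

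**Figure D3:**
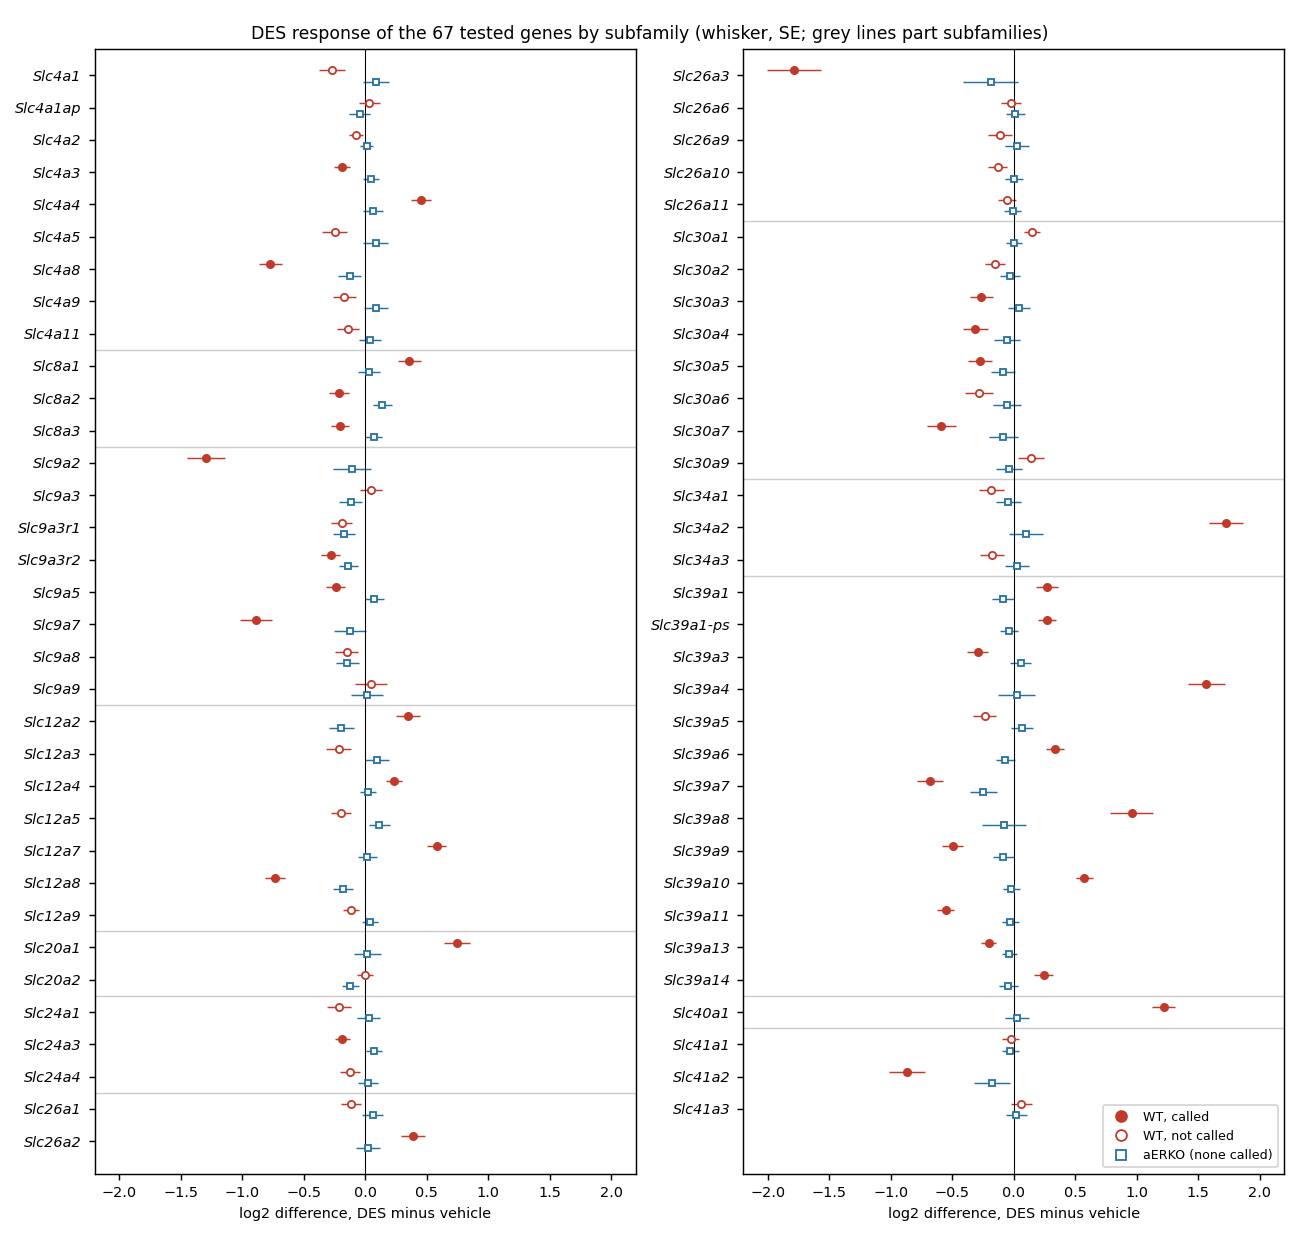
Difference between DES and vehicle (x axis, log2; whisker, SE) for the 67 tested genes, ordered by subfamily; circles are WT, filled where called, and squares aERKO. Among genes above the negative controls in both groups, the WT values run from -1.79 for Slc26a3 to 1.56 for Slc39a4; points that involve a dim group, such as those of Slc34a2 and Slc40a1, are fitted values and not measured sizes. The aERKO values run from -0.25 to 0.14.

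The difference between these responses was tested as an interaction, the response in aERKO minus that in WT. It was called in 20 of 67 members, and in 23.3% of all genes. It was positive in 10 (9.16% of all genes), which had been lower after DES in WT, and negative in 10 (14.1% of all genes), which had been higher. Slc26a3 (1.60 ± 0.31, SE, adjusted p = 0.00317) and Slc9a2 (1.19 ± 0.22, SE, adjusted p = 0.00198) had the largest positive values. Slc39a4 (-1.54 ± 0.21, SE, adjusted p = 0.000219) and Slc39a8 (-1.04 ± 0.25, SE, adjusted p = 0.0114) had the largest negative ones among members above the negative controls in all 4 groups. Slc34a2 (adjusted p = 6.92e-05) and Slc40a1 (adjusted p = 5.44e-05) were called too, but both were dim in 3 groups and no size is given. By fitted values, these dim genes included, the interaction was at least 1 in size for 2 positive members (0.333% of all genes) and 4 negative ones (4.52%). This comparison shares the WT arrays with the one in WT, so it is no independent evidence of the WT response.

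Of the 37 genes called in WT, 20 passed this test of difference and 17 did not. The 17 include Slc39a7 (0.44, adjusted p = 0.0525), Slc26a2 (-0.36, adjusted p = 0.0736) and Slc8a1 (adjusted p = 0.0855). The split of 10 positive and 10 negative became 27 and 10 after quantile normalization, 21 and 10 after median scaling, and 2 and 9 with the hybridization controls. Over all genes, 1841 positive and 2838 negative became 4288 and 2595, 3834 and 2407, and 133 and 2806 in that order. Positive calls among members numbered 6 without WT_vehicle replicate 2 or 3, WT_DES replicate 2 or aERKO_vehicle replicate 1. Among all genes they numbered 1055 to 1331 in these fits.

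Genotype alone left the carriers without a call. Between aERKO_vehicle and WT_vehicle 0 of 67 members were called by limma, against 0.0249% of all genes (5 genes), and the smallest adjusted p among members was 0.604. Unadjusted p was under 0.05 for 2 members and 864 genes. These 2 were Slc9a3 and Slc4a8. Slc9a3 read 6.86, 6.74 and 6.96 in aERKO_vehicle, against 6.56, 6.48 and 6.48 in WT_vehicle, and 6.67, 6.66 and 6.88 in aERKO_DES, against 6.74, 6.44 and 6.49 in WT_DES. The vehicle groups did not overlap, but the gene failed the adjustment (adjusted p = 0.604). Slc4a8 differed by 0.25 ± 0.09 (SE, adjusted p = 0.982). Differences over the 67 members ran from -0.32 to 0.35.

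Between aERKO_DES and WT_DES 46 members were called (68.7%), against 52.1% of all genes. Of these, 30 were higher (44.8%), against 27.5% of all genes, and 16 lower (23.9%), against 24.6%. Among the 30 were 5 members that were dim in all 4 groups. All 9 tested members that were dim in all 4 groups had differences above 0, with a median of 0.23. This comparison uses the same WT_DES arrays as the one in WT. Fitted differences of at least 1 were found in 2 members called higher (2.99%, against 0.612% of all genes) and 4 called lower (5.97%, against 4.83%). Slc26a3 (1.81) and Slc9a2 (1.43) were higher in aERKO_DES, and Slc39a4 (-1.60) and Slc39a8 (-1.35) were lower. Slc34a2 was at least 2.75-fold lower and Slc40a1 at least 1.62-fold lower in aERKO_DES, where both were dim. Slc39a8 thus passed 2-fold here and not between WT_DES and WT_vehicle. The split of 30 higher and 16 lower became 39 and 13 after quantile normalization, 40 and 15 after median scaling, 7 and 16 with the hybridization controls, and 18 and 14 when only these 2 groups entered the fit. Over all genes, 5529 higher and 4954 lower became 7692 and 3890, 7974 and 3917, 553 and 5825, and 3746 and 4000 in that order.

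**Figure D4:**
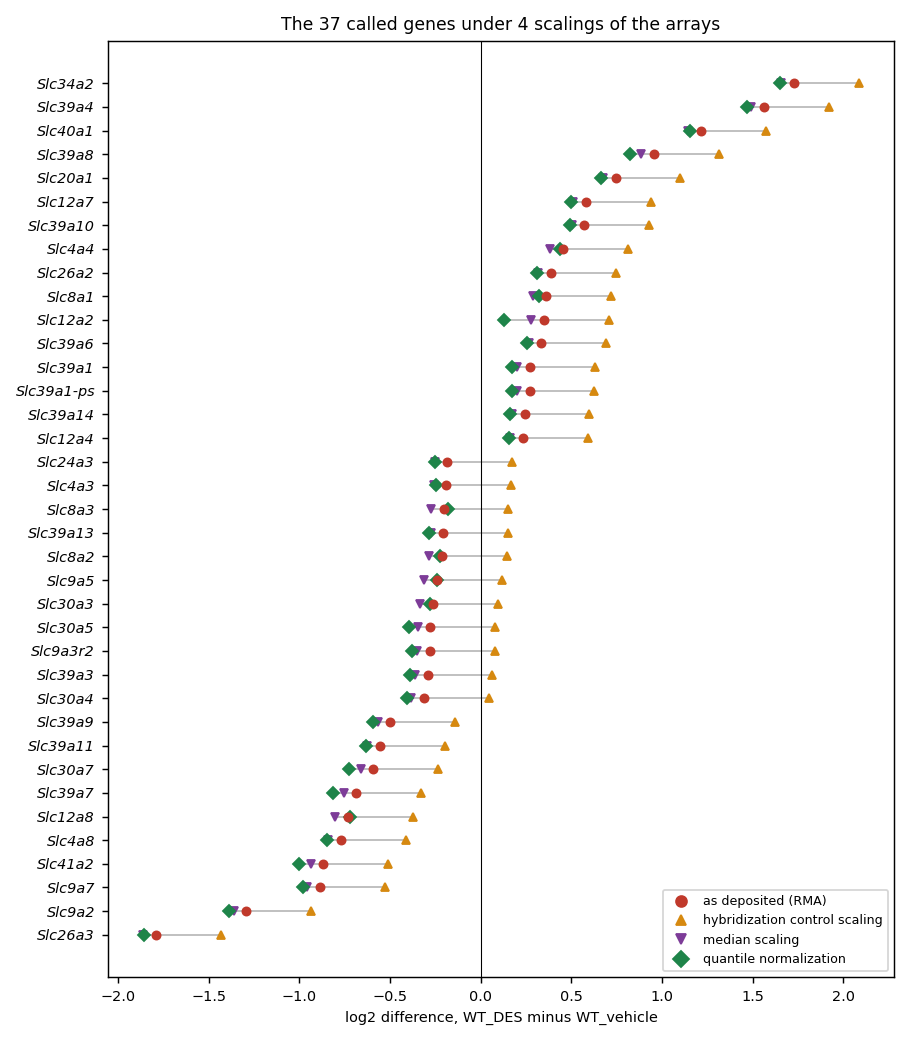
Differences between WT_DES and WT_vehicle (x axis, log2) of the 37 called genes under 4 scalings of the arrays (symbols); values that involve a dim group are fitted ones. The 16 higher genes stay above 0 under all 4, whereas 11 of the 21 lower genes cross 0 with the hybridization controls, and the other 10 stay below it.

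The 13 untested members were Slc4a10, Slc9a4, Slc12a1, Slc24a2, Slc24a5, Slc26a4, Slc26a5, Slc26a7, Slc26a8, Slc30a8, Slc30a10, Slc39a2 and Slc39a12. Each lay at or below the array median on all but at most 2 arrays, and all 13 were dim in all 4 groups, so no differences are given for them here.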

How the data were processed

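Per the labels' protocols, Trizol was used to isolate total RNA from 12 seminal vesicle samples, and 300 ng of each went into the labelling for 1 Affymetrix array. The authors deposited log2 expression per probe set. The submitters' processing notes name RMA and Affymetrix Expression Console. RMA normalizes the arrays to one another, so levels are relative to the other arrays. Software versions and the authors' build: not given in the sources used here.

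The table held 72688 probe sets, of which 30604 had exactly 1 gene symbol in the platform annotation and 2146 had several. For 1135 of them the symbol was updated with RefSeq's mouse genes (GRCm38.p6). A gene with several probe sets (429 genes) was represented by the one with the highest mean. Genes above the array's median on at least 3 of 12 arrays were tested, 20102 of 30063.

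Groups came from the sample titles. Differences were tested with limma 3.58.1 in R 4.3.3 (lmFit and eBayes, two-sided), with all 12 arrays in 1 fit for 5 comparisons and Benjamini-Hochberg adjustment over all genes tested. Residual degrees of freedom were 8 and prior ones 4.33, and the number of arrays limits the precision. The steps were tested on simulated data. The main fit held no replicate block. Of 18 same-numbered pairs, 6 correlated above 0.1 (range -0.36 to 0.52). These 6 joined replicates 2 or replicates 3 of WT_DES, aERKO_vehicle and aERKO_DES, and the pairs of replicates 3 gave 0.37 to 0.52. A differently numbered pair, aERKO_vehicle replicate 2 and aERKO_DES replicate 1, gave 0.58. Whether replicate numbers mark a shared batch was not tested.

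The 80 members, the 8 related lists and the 15 marker lists were chosen with earlier results of these data known. Values on every array are given for members called with a difference of at least 1 in any comparison, the member of each subfamily with the highest mean, and a fixed set of carriers, and up to 4 called genes are named per related list. Further values are given beside these. The dim limit, the 75th percentile of the negative controls, was chosen after seeing the data. A dim group's level was raised to that limit on each array to give "at least" values. Promoter sequences are from RefSeq. The alternatives, 9 settings and 12 that leave out 1 array each, were listed with the tests.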

Additional observations from a re-analysis of the deposited data

Results flagged for a closer look

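The difference between the DES response in aERKO and that in WT passed the test of the interaction in 20 carriers. It was positive in genes that fell after DES in WT. These were Slc26a3 (1.60), Slc9a2 (1.19), Slc9a7 (0.76), Slc41a2 (0.69), Slc4a8 (0.65), Slc12a8 (0.55), Slc39a11 (0.53), Slc30a7 (0.51), Slc39a9 (0.41) and Slc8a2 (0.35). The interaction was negative in genes that rose after DES in WT. These were Slc34a2 (-1.63), Slc39a4 (-1.54), Slc40a1 (-1.19), Slc39a8 (-1.04), Slc20a1 (-0.73), Slc39a10 (-0.59), Slc12a7 (-0.57), Slc12a2 (-0.54), Slc39a6 (-0.40) and Slc4a4 (-0.39). The values of Slc34a2, Slc40a1 and Slc4a4, which were dim in 3 groups, and of Slc12a8, which was dim in WT_DES, are fitted ones and not measured sizes. Slc8a2 and Slc12a2 differed in sign between the genotypes, with 0.14 in aERKO and -0.21 in WT for Slc8a2, and -0.19 in aERKO and 0.35 in WT for Slc12a2, although neither aERKO value was called.

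Slc9a4, a sodium and proton exchanger best known from the stomach, was left out by the filter on low values but stood apart in WT_DES. It read 5.77, 6.48 and 6.14 in WT_DES, against 4.98, 5.18 and 5.19 in WT_vehicle, and 5.05, 5.20 and 5.19 in aERKO_DES, against 5.17, 5.08 and 5.06 in aERKO_vehicle. No WT_DES array overlapped another group. Every group was dim, so the difference between WT_DES and WT_vehicle fitted without the filter, 1.02 (adjusted p = 0.000148), is not a measured size.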

How the results depend on the processing

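Of the 37 members called between WT_DES and WT_vehicle, 17 kept their call under all alternatives in which they were tested. Scaling to the hybridization controls moved most values. Under it the WT difference changed sign for Slc4a3 (0.17), Slc8a2 (0.14), Slc8a3 (0.15), Slc9a3r2 (0.079), Slc9a5 (0.12), Slc24a3 (0.17), Slc30a3 (0.093), Slc30a4 (0.044), Slc30a5 (0.081), Slc39a3 (0.065), Slc39a13 (0.15) and Stk39 (0.060). The difference between aERKO_DES and WT_DES changed sign for Slc24a3 (-0.023), Slc26a1 (-0.00097) and Slc39a13 (-0.000303). That scaling left 6 members lower in WT, against 32 with quantile and 33 with median scaling, and 11 to 29 with 1 array left out. Over all genes the first 3 of these counts were 350, 7142 and 7115. Positive interactions of members numbered 2 with the hybridization controls, 27 with quantile scaling, 21 with median scaling, and 6 to 12 with 1 array left out. For all genes the 3 scalings gave 133, 4288 and 3834. Members higher in aERKO_DES than in WT_DES numbered 7 with the hybridization controls and 18 with only those 2 groups in the fit (all genes: 553 and 3746). Called genes in WT, either direction, were 5 of the carbonic anhydrases (8 as reported), 10 of the sodium and proton pumps (6), 10 of the vacuolar ATPase (5) and 5 of phosphate and magnesium handling (3) with the hybridization controls. The carbonic anhydrases had 5 with the stricter filter. Phosphate and magnesium handling had 7 with quantile and 6 with median scaling, and up to 5 with 1 array left out; the WNK and SPAK pathway had as few as 2. The cause of these changes was not tested. With a replicate block, which the main fit did not hold, positive interactions numbered 19, calls in phosphate and magnesium handling 5, and members lower in WT 27. Over all genes the block gave 2705 positive interactions and 5486 genes lower in WT. Low signal over background limits the 22 members that were dim in all 4 groups.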
